A study of Mus musculus with 28 samples.

Results

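Wild-type cells at the stage called TN day 6 were compared with wild-type cells at TN day 2 across all genes. The arrays were chosen by their titles, 3 of TN day 6 and 2 of TN day 2, which are 5 of the 28 arrays of the series, and 19938 genes were tested. The series followed mouse embryonic stem (ES) cells of strain 129SvEv, wild type or without the gene of topoisomerase IIβ (Top2b), through a neuronal progenitor (NP) stage to neurons. It also held neurons at TN day 5 and cortical neurons, each treated with ICRF-193, which inhibits type II topoisomerases, or with its solvent DMSO. That treatment text stands on every sample of the series, also on the TN day 2 and TN day 6 arrays compared here, whose titles name no treatment, so whether they received DMSO is not settled by the labels. Total RNA was hybridized to Affymetrix whole-transcript arrays. The groups used here were wild-type TN day 6 (3 arrays), wild-type TN day 2 (2 arrays) and, for one test, Top2b knockout cells at TN day 6 (3 arrays) and TN day 2 (2 arrays), all of the same strain. The labels describe both stages as neurons, do not spell out TN, and do not say whether arrays came from separate cultures or from how many ES cell clones. The p-values therefore measure the spread between arrays of a group, which may be technical. For each gene this spread was pooled over all 12 groups of the series, not taken from the 5 arrays alone.

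In the differentiation procedure that the labels cite, ES cells form aggregates, receive retinoic acid and become Pax6-positive progenitors resembling radial glia, which are then plated and turn into mostly glutamatergic neurons. Neurons that leave the cell cycle switch off the genes of DNA replication and mitosis and, while their axons and dendrites grow, switch on ion channels, transmitter receptors and the proteins of the synapse. Radial glia hold their state through Notch receptors, Hes repressors and Id proteins, which block the bHLH transcription factors that start neuronal differentiation.

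Values are the deposited log2 expression levels. A gene was called when the Benjamini-Hochberg adjusted p of limma, over all 19938 genes, was under 0.05, and "rose" or "fell" is written only of called genes. Differences are TN day 6 minus TN day 2 on the log2 scale, so 1 unit is a 2-fold change, given with the standard error (SE) of the model and n = 3 and 2 arrays. The median level lay between 6.58 and 6.63 in the day 6 arrays and was 6.69 and 6.63 in the day 2 arrays. Levels correlated at 0.9965 to 0.997 between day 6 arrays and at 0.9917 between the day 2 arrays. Only 6 genes differed by 2-fold or more between any day 6 arrays, but between the day 2 arrays 148 were higher in number 2 and 53 in number 1 by that much. Number 2 had the higher mean level of 18 mesenchymal and fibroblast markers, 8.54 against 7.05 in number 1. Number 1 had the higher mean level of 29 radial glia and progenitor genes, 8.58 against 8.07. Results that rest on 1 of these arrays are given with and without it. Such a fit keeps only the other array at day 2, so its p-values rest on the spread within the other groups.

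**Figure D1:**
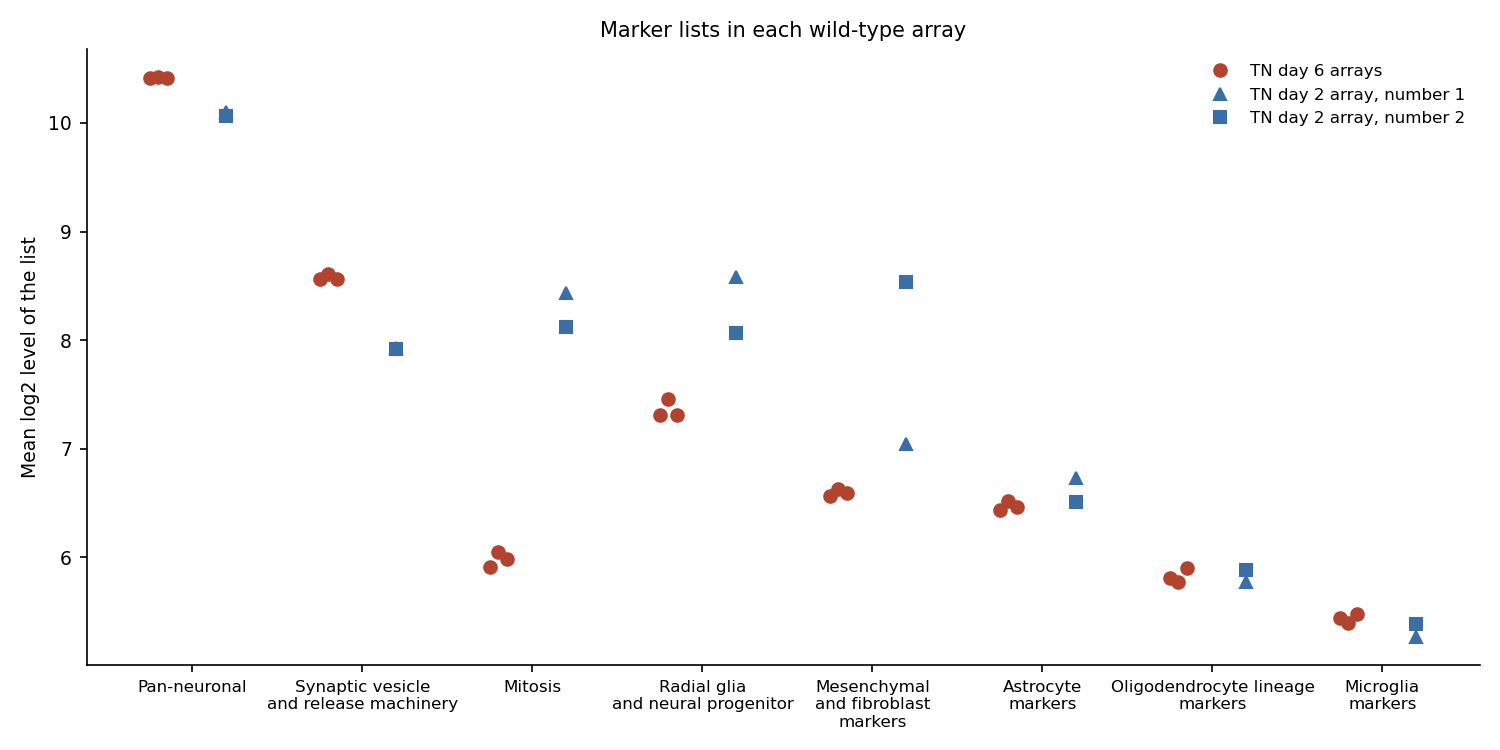
Mean log2 level (vertical axis) of 8 lists of marker genes in each wild-type array, with day 6 arrays as circles and the day 2 arrays as a triangle (number 1) and a square (number 2). The day 2 arrays lie apart from each other in the mesenchymal list, at 7.05 and 8.54, while the 3 day 6 arrays lie close together in all lists.

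Top2b, the gene deleted in the knockout, did not change by more than its error, with 11.32, 11.19 and 11.15 at day 6, against 11.40 and 11.35 at day 2 (-0.16 ± 0.22, adjusted p = 0.636). Its mean level in ES cells was 6.45 without the gene and 7.74 with it, and in NP cells 6.83 without and 9.14 with it. At TN day 5 it was 10.65 with ICRF-193 and 10.84 with DMSO, and in cortical neurons 10.98 with ICRF-193 and 10.86 with DMSO. Knockout cells had 9.04, 8.68 and 9.001 at TN day 6 and 8.99 and 8.94 at TN day 2, all below every wild-type array of those days.

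Of the 19938 genes, 5690 were called (28.5%). Levels rose for 3324 genes (16.7%) and fell for 2366 (11.9%), and 7651 genes had an unadjusted p under 0.05. The rise was at least 2-fold for 357 genes (1.79%) and the fall for 562 (2.82%). Of the called genes, 5648 had no overlap between day 6 and day 2 arrays, while 57.0% of all genes had none. Without day 2 number 1 the fallen genes numbered 1470, and without day 2 number 2 the risen genes numbered 2203. In bulk RNA a change in the number of cells of a type and a change in the RNA of each cell cannot be told apart. The plot of gene lists gives the shares called in each direction.

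**Figure D2:**
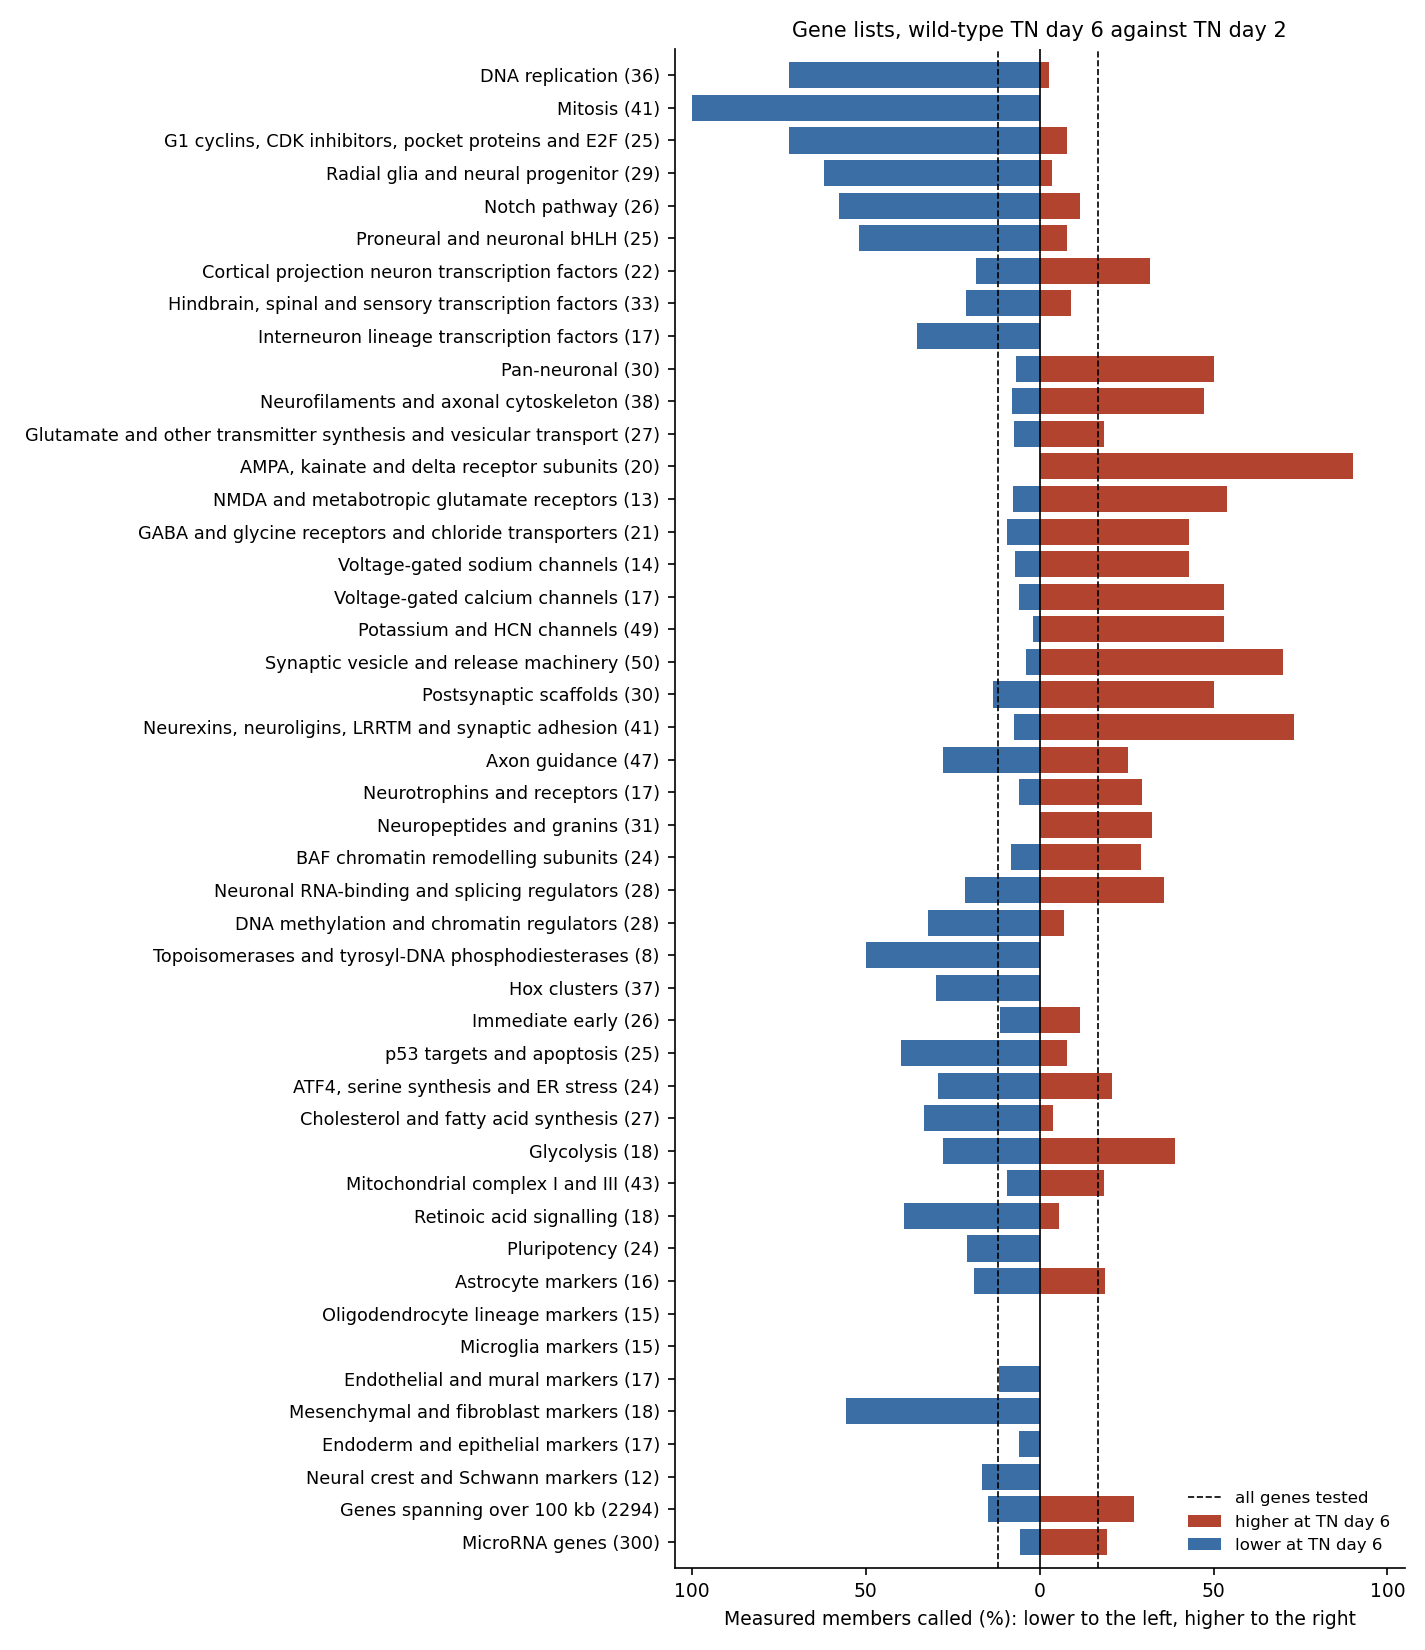
Share of the measured members of each gene list (number in brackets) that was called higher (bars to the right) or lower (bars to the left) at TN day 6 than at TN day 2 in wild-type cells. Dashed lines mark the shares over all 19938 genes, 16.7% higher and 11.9% lower. All 41 mitosis genes lie on the lower side and 18 of 20 AMPA, kainate and delta receptor genes on the higher side.

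The largest rise was that of Tac1, which encodes the precursor of the neuropeptide substance P. Its level was 10.26, 10.18 and 10.16 at day 6, against 5.31 and 4.89 at day 2, a difference of 5.10 ± 0.20 (34.4-fold, adjusted p = 9.29e-13). The groups were far apart. At TN day 5 with DMSO the mean level was only 5.69, far below that of the day 6 arrays. Slc17a6, the vesicular glutamate transporter VGLUT2, reached 10.40, 10.51 and 10.44 at day 6, against 7.56 and 6.94 at day 2, a rise of 3.20 ± 0.25 (9.16-fold, adjusted p = 5.7e-09). Unlike Tac1 it stood at a mean of 9.93 at TN day 5 with DMSO.

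Among the other genes that rose most were the potassium channels and channel partners Kcnk9 (2.90 ± 0.24) and Dpp10 (2.64 ± 0.16), the neurite growth factor Nrn1 (2.77 ± 0.34) and Gabra2, a subunit of the GABA-A receptor (2.29 ± 0.16). Chmp2b, a part of the membrane-remodelling complex ESCRT-III, rose by 2.36 ± 0.16. Chd5, a neuronal chromatin remodeller, rose by 2.20 ± 0.15, Shtn1, an axon outgrowth protein, by 2.10 ± 0.11, and Vsnl1, a neuronal calcium sensor, by 2.06 ± 0.18. Adap1, a regulator of Arf GTPases in neurons, rose by 2.25 ± 0.27. Nap1l5, an imprinted gene, rose by 2.27 ± 0.15. Usp17ld rose by 3.55 ± 0.34, but it belongs to a family of near-identical deubiquitinase genes, so its probe set may read several copies. Nxf3, a member of the nuclear RNA export factor family, had 6.74, 6.58 and 6.65 at day 6, against 4.18 and 4.04 at day 2 (2.55 ± 0.13, adjusted p = 1.78e-11). Its day 2 levels were close to its mean of 4.16 at TN day 5 with DMSO. The deposited values carry no measure of background, so for a gene as low as Nxf3 at day 2 the difference of the values may understate the change.

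The largest fall was that of Id3, an inhibitor of bHLH factors. Its level was 5.40, 5.15 and 5.52 at day 6, against 9.12 and 9.25 at day 2, and it fell by 3.83 ± 0.18 (adjusted p = 5.93e-12), so it was 14.2-fold higher at day 2. Adgrv1, a very large adhesion receptor, fell by 3.41 ± 0.23, and Gja1, the gap junction protein connexin 43 of radial glia and astrocytes, fell by 3.18 ± 0.22. Gja1 had 6.91, 6.95 and 6.65 at day 6, against 9.99 and 10.05 at day 2. Cxcr4, the receptor of the chemokine CXCL12 on migrating cells, fell by 2.77 ± 0.33. Pclaf, a partner of the replication clamp, fell by 2.94 ± 0.14.

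Another set of genes that fell strongly differed between the day 2 arrays. Sulf1, an enzyme that trims heparan sulfate, had 5.92, 6.20 and 6.21 at day 6, against 7.77 in day 2 number 1 and 10.74 in number 2. Its difference of -3.15 ± 0.45 (adjusted p = 1.27e-05) became -1.66 without number 2. Dcn, the matrix proteoglycan decorin, had 6.59, 6.85 and 6.63 at day 6, against 8.37 and 10.96 at day 2, and its difference of -2.97 ± 0.48 became -1.68 without number 2. Itm2a, Col12a1 and the growth factor gene Igf2 fell, with differences of -3.01, -2.92 and -2.87, and of -1.96, -1.53 and -1.89 without number 2. Slc38a4, an amino acid transporter, had 8.65 and 10.54 in the day 2 arrays. The fit without number 2 keeps only number 1 at day 2, so it holds no measure of the day 2 spread of these genes.

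The cell division genes fell as a group. All 41 measured mitosis genes were called lower, with differences between -3.34 and -1.07 and a median of -2.40, against a median of 0.09 over all genes. Every measured member was also called lower in all other settings, among which the filter on dim genes left 38 measured. Top2a, the topoisomerase II of dividing cells, had 6.62, 7.11 and 6.69 at day 6, against 10.25 and 10.04 at day 2, and fell by 3.34 ± 0.20 (adjusted p = 1.61e-10). Its day 2 level was about that of ES and NP cells, at means of 10.22 and 10.37, and the fall came after day 2. Mki67, the proliferation antigen Ki-67, had 6.34, 6.45 and 6.33 at day 6, against 9.55 and 9.33 at day 2, and fell by 3.06 ± 0.21. Bub1, a kinase of the spindle checkpoint, fell by 3.32 ± 0.23, and Cdk1, the kinase that starts mitosis, fell by 2.46 ± 0.20. Ect2, which directs cytokinesis, was also among the 25 largest falls.

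Promoters of 4 of these genes are printed because letters known from cell-cycle promoters recur in them. The windows hold 250 bases before and 50 after the annotated start in RefSeq (GRCm38.p6). They are written 5′ to 3′ on the strand of the gene, with capitals for the CHR letters (TTTGAA or TTCGAA, searched on both strands) and for the CCAAT box (CCAAT, also on both strands, where it reads ATTGG). In other studies the CHR and the CCAAT box bind the DREAM complex and NF-Y.
Cdk1, chr10:69352863-69353162, minus strand: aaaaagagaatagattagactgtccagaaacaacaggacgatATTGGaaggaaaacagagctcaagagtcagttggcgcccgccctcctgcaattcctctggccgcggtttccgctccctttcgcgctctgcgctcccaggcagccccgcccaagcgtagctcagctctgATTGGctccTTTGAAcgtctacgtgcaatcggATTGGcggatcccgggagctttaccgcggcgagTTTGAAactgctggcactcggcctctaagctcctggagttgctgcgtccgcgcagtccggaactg
Ccnb2, chr9:70421505-70421804, minus strand: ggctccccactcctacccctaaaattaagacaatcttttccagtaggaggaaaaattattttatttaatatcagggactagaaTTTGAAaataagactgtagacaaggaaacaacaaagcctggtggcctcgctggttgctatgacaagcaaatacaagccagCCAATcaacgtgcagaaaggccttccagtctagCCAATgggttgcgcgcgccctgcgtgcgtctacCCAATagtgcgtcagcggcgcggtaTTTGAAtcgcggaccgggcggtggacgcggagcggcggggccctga
Hmmr, chr11:40733388-40733687, minus strand: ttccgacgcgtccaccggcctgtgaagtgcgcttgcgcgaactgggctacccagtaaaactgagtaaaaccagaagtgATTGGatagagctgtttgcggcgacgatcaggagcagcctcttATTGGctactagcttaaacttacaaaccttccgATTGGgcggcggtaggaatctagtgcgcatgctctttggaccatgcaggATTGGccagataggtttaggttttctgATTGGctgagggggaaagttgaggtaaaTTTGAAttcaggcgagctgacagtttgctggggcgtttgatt
Top2a, chr11:99024140-99024439, minus strand: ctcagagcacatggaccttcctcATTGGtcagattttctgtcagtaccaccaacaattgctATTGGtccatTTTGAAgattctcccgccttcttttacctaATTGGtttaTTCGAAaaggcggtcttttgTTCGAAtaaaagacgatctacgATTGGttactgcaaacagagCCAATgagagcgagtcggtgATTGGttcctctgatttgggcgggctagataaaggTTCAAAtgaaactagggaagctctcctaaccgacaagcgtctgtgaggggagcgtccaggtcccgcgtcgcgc

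The Cdk1 window held 2 CHR matches, 71 and 15 bases before the start, and 3 CCAAT boxes. The Ccnb2 window held 2 CHR and 3 CCAAT matches, the Hmmr window 1 and 5, and the Top2a window 4 and 6. Of the 41 mitosis genes, 34 had a promoter window, and 25 of these (73.5%) held a CHR match, against 21.7% of all 27025 genes with a window. A gene counted when any of its windows held the match. A CCAAT box was in 24 of the 34 (70.6%), against 41.1% of all genes with a window, and both were in 22 (64.7%), against 8.61%. Among 29 DNA replication genes 24.1% held a CHR match, 62.1% a CCAAT box and 13.8% both. Among 41 synaptic vesicle genes the shares were 14.6%, 34.1% and 9.76%. Hmmr, a spindle protein, had 4.78, 4.78 and 4.69 at day 6, against 7.57 and 7.36 at day 2, and fell by 2.71 ± 0.21. Ccnb2, cyclin B2, fell by 1.58 ± 0.17 (adjusted p = 3.2e-07), having had a mean of 11.15 in NP cells and 8.58 and 8.47 already at day 2. A match is a description of letters and not a measured binding site.

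Of 36 DNA replication genes, 26 fell and 1 rose, with a median of -0.94. Rrm2, a subunit of the enzyme that makes deoxynucleotides, had 6.79, 7.21 and 6.86 at day 6, against 9.62 and 9.42 at day 2, and fell by 2.57 ± 0.19. The helicase subunits Mcm3 and Mcm6 fell, with differences of -2.54 ± 0.20 and -1.93 ± 0.12. Pcna, the replication clamp, fell by only 1.09 ± 0.11 and stayed at 9.40, 9.46 and 9.37 at day 6. Cdc7, a kinase that acts in the firing of origins, was the member that rose, by 0.54 ± 0.12 (adjusted p = 0.00167, limma). Among 25 genes of the G1 cyclins, CDK inhibitors, pocket proteins and E2F factors, 18 fell and 2 rose. Ccnd1 and Ccnd2, the D-type cyclins, fell, with differences of -2.59 ± 0.19 and -2.48 ± 0.29, and Cdk2 fell by 2.16 ± 0.18. Cdkn1c, a CDK inhibitor that rises when neurons leave the cycle, also fell, by 1.32 ± 0.16, with 10.60, 10.67 and 10.54 at day 6, against 12.04 and 11.80 at day 2. Rbl2, the pocket protein p130 of resting cells, rose by 0.44 ± 0.11, a call that ended without day 2 number 2 (adjusted p = 0.051, limma).

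Of 29 radial glia and progenitor genes, 18 fell and 1 rose, with a median of -0.84. Pax3, a dorsal progenitor factor, had 7.13, 7.30 and 7.05 at day 6, against 9.82 and 9.04 at day 2, and fell by 2.27 ± 0.23. Pax6 had 6.53, 6.62 and 6.39 at day 6, against 9.14 and 8.06 at day 2, and fell by 2.08 ± 0.26 (adjusted p = 3.17e-06). Its day 6 level was below the mean of 6.97 in ES cells, after 10.44 in NP cells. The receptor Fgfr2, the hedgehog effector Gli3 and the stem cell factor Sox2 fell, with differences of -2.15 ± 0.18, -2.13 ± 0.18 and -1.88 ± 0.24. The intermediate filaments Nes and Vim fell, with differences of -1.75 ± 0.29 and -1.40 ± 0.21, but Vim still stood at 10.60, 10.66 and 10.57 at day 6. Zic1, a factor of dorsal progenitors and their neurons, was the member that rose, by 1.13 ± 0.28, and its adjusted p was 0.128 without day 2 number 2.

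Of 26 Notch pathway genes, 15 fell and 3 rose, and without day 2 number 1 only 9 were called lower. Nrarp, a target and inhibitor of Notch signalling, had 6.503, 6.72 and 6.30 at day 6, against 9.21 and 7.97 at day 2, and fell by 2.08 ± 0.32. The repressor Hes1 fell by 1.89 ± 0.26 and the receptor Notch1 fell by 1.87 ± 0.18. The ligands Dll3 and Dll1 fell, with differences of -1.76 ± 0.24 and -1.58 ± 0.22, and that of Dll1 was -1.05 without day 2 number 1. Hes5 fell by 1.07 ± 0.23, with 7.64, 7.99 and 7.88 at day 6, against 9.57 and 8.23 at day 2. Leaving out number 1 took the difference of Hes5 to -0.40 (adjusted p = 0.106, limma).

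Of 25 bHLH and Id genes, 13 fell and 2 rose. Beside Id3, Id1 and Id2 fell, with differences of -1.38 ± 0.17 and -1.30 ± 0.12. Id4 went the other way, with 11.21, 11.17 and 11.23 at day 6, against 10.17 and 10.41 at day 2, a rise of 0.91 ± 0.13 (adjusted p = 9.88e-06). It had means of 5.90 in ES and 6.999 in NP cells. Neurod4, a proneural factor, had 4.66, 4.66 and 4.52 at day 6, against 7.49 and 7.55 at day 2, and fell by 2.91 ± 0.15 (adjusted p = 2.99e-11). Nhlh1, Neurog1 and Neurog2 fell, with differences of -1.60 ± 0.24, -1.07 ± 0.21 and -0.68 ± 0.12. Neurod6 rose by 1.35 ± 0.13, but only to 4.60, 4.80 and 4.85, far below the mean of 10.55 in cortical neurons with DMSO.

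Of 18 genes of retinoic acid signalling 7 fell and 1, the receptor Rxrb, rose (0.52 ± 0.10). Crabp2, which carries retinoic acid to its nuclear receptors, had 6.95, 7.001 and 6.94 at day 6, against 10.61 and 10.04 at day 2, and fell by 3.36 ± 0.22 (adjusted p = 4.17e-10). Its mean had been 11.39 in NP cells and 6.89 in ES cells, so the day 6 level was close to that of ES cells. Dhrs3, a retinaldehyde reductase that responds to retinoic acid, had 6.05, 6.22 and 6.24 at day 6, against 9.16 and 9.36 at day 2, and fell by 3.09 ± 0.17. The receptor Rarb and the binding protein Crabp1 fell, with differences of -1.45 ± 0.28 and -1.44 ± 0.20. Aldh1a2, which makes retinoic acid, had 6.06, 6.0995 and 5.88 at day 6, against 7.39 in day 2 number 1 and 9.29 in number 2, and its difference of -2.32 ± 0.33 became -1.38 without number 2.

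Of 37 Hox genes, which set position along the body axis, 11 fell and none rose, and over the other settings 9 to 14 fell and up to 2 rose. Hoxc4 had 9.59, 9.33 and 9.23 at day 6, against 10.72 and 10.68 at day 2, and fell by 1.32 ± 0.19 (adjusted p = 1.32e-05). Hoxc6 fell by 1.47 ± 0.34 and Hoxb2 by 1.10 ± 0.29. Hoxb2 had an adjusted p of 0.0858 in limma without day 2 number 1. Hoxc4 had means of 5.05 in ES cells and 4.79 in cortical neurons with DMSO. The microRNA genes Mir10a and Mir10b, which lie in the Hoxb and Hoxd clusters, also fell.

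MicroRNAs pair with messenger RNAs through their seed, bases 2 to 8, and lower the output of their targets. The array reads the transcript from which a microRNA is cut, and mature and precursor RNA cannot be told apart. Of 300 genes with a microRNA symbol, 4 of them host genes, 58 were called higher and 17 lower, against 16.7% and 11.9% of all genes; without day 2 number 1, 27 were called higher and 10 lower. Genes between Dlk1 and Dio3, an imprinted domain of chromosome 12 that is expressed in brain, made up much of the rise. This grouping was chosen after the values were seen and carries no test. Of its 40 measured microRNA genes 22 were called higher and none lower (55.0%), against 36 of the 260 other microRNA genes (13.8%). All 40 differences were above 0, with a median of 0.76 and a highest value of 1.48. Of the 260 others, 179 were also above 0, with a median of 0.12. The count was 15 without day 2 number 1 and 23 without number 2. With the filter on dim genes, 24 of the 40 were left and 14 of these were called higher. The mean level of the 40 genes was 6.64, 6.65 and 6.69 at day 6, against 5.78 and 6.06 at day 2. The 260 others were dimmer, at 5.13, 5.10 and 5.16 at day 6, against 5.02 and 5.07 at day 2.

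The sequences below are the mature RNAs of 8 domain genes that rose, of 2 that share a seed and fell, and of the let-7 and miR-99 members that fell (RefSeq, GRCm38.p6, all on the plus strand). Capitals mark the seed.
mmu-miR-539-5p, chr12:109728136-109728157: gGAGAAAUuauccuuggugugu
mmu-miR-495-3p, chr12:109718795-109718816: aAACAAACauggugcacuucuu
mmu-miR-409-3p, chr12:109743204-109743225: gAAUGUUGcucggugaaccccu
mmu-miR-382-5p, chr12:109733781-109733802: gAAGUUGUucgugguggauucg
mmu-miR-369-3p, chr12:109743466-109743486: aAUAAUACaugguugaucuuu
mmu-miR-381-3p, chr12:109726870-109726891: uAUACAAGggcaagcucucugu
mmu-miR-377-3p, chr12:109740553-109740574: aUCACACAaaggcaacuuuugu
mmu-miR-134-5p, chr12:109734145-109734166: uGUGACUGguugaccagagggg
mmu-miR-10a-5p, chr11:96317186-96317208: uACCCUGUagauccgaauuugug
mmu-miR-10b-5p, chr2:74726074-74726096: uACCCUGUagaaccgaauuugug
mmu-miR-99a-5p, chr16:77598940-77598961: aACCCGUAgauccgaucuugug
mmu-let-7c-5p, chr16:77599672-77599693: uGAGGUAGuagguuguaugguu

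The 8 domain sequences printed have 8 different seeds. Among all mature sequences of the domain, miR-379-3p shares its seed with miR-411-3p and miR-376b-5p with miR-376c-5p. Mir539 had 8.06, 8.01 and 8.15 at day 6, against 6.57 and 6.62 at day 2, and rose by 1.48 ± 0.20 (adjusted p = 8.92e-06). Mir134, which in rodent neurons restrains dendritic spines, had 8.80, 8.87 and 8.86 at day 6, against 7.60 and 7.84 at day 2, and rose by 1.13 ± 0.15. Mir495, Mir409, Mir382, Mir369 and Mir377 rose by 1.42 ± 0.24, 1.38 ± 0.19, 1.33 ± 0.22, 1.31 ± 0.22 and 1.15 ± 0.18. Of the long RNAs of the domain, Meg3 had 12.28, 12.23 and 12.25 at day 6, against 11.32 and 11.57 at day 2, and rose by 0.81 ± 0.12 (adjusted p = 1.94e-05). Rian rose by 0.91 ± 0.24, but its adjusted p was 0.198 in limma without day 2 number 1. The protein-coding genes of the domain were not called, with differences of -0.34 ± 0.35 for Dlk1, 0.11 ± 0.13 for Rtl1 and -0.09 ± 0.18 for Dio3.

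In knockout cells the same 40 microRNA genes had a median change of 0.05 and 6 were called higher. Mir323 and Mir329 were called lower there, with changes of -0.87 ± 0.19 and -0.75 ± 0.20. The difference between genotypes was called for 8 of the 40, all lower in knockout. It was called lower for 2 of the 260 other microRNA genes and for 2.09% of all genes. The count of 8 was not repeated with arrays left out. Among the 8 were Mir495 (-1.50 ± 0.33, adjusted p = 0.00978) and Mir377 (-0.99 ± 0.25, adjusted p = 0.027). Without wild-type day 2 number 1 the adjusted p was 0.0924 for Mir495 and 0.201 for Mir377, and without knockout day 2 number 2 it was 0.0557 and 0.103. Mir377 also missed the threshold without knockout day 2 number 1, wild-type day 6 number 1 or knockout day 6 number 2 (adjusted p = 0.0596, 0.0633 and 0.0701, limma). Mir495 had 3.82, 3.43 and 4.17 at day 6 and 3.87 and 3.91 at day 2 in knockout cells, against 5.31, 5.20 and 5.47 at day 6 and 3.71 and 4.10 at day 2 in wild-type cells. Meg3 changed by 0.78 in knockout and 0.81 in wild-type cells. Rian changed by 0.12 ± 0.24 in knockout and 0.91 ± 0.24 in wild-type cells, a difference of -0.78 ± 0.35 that was not called.

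**Figure D3:**
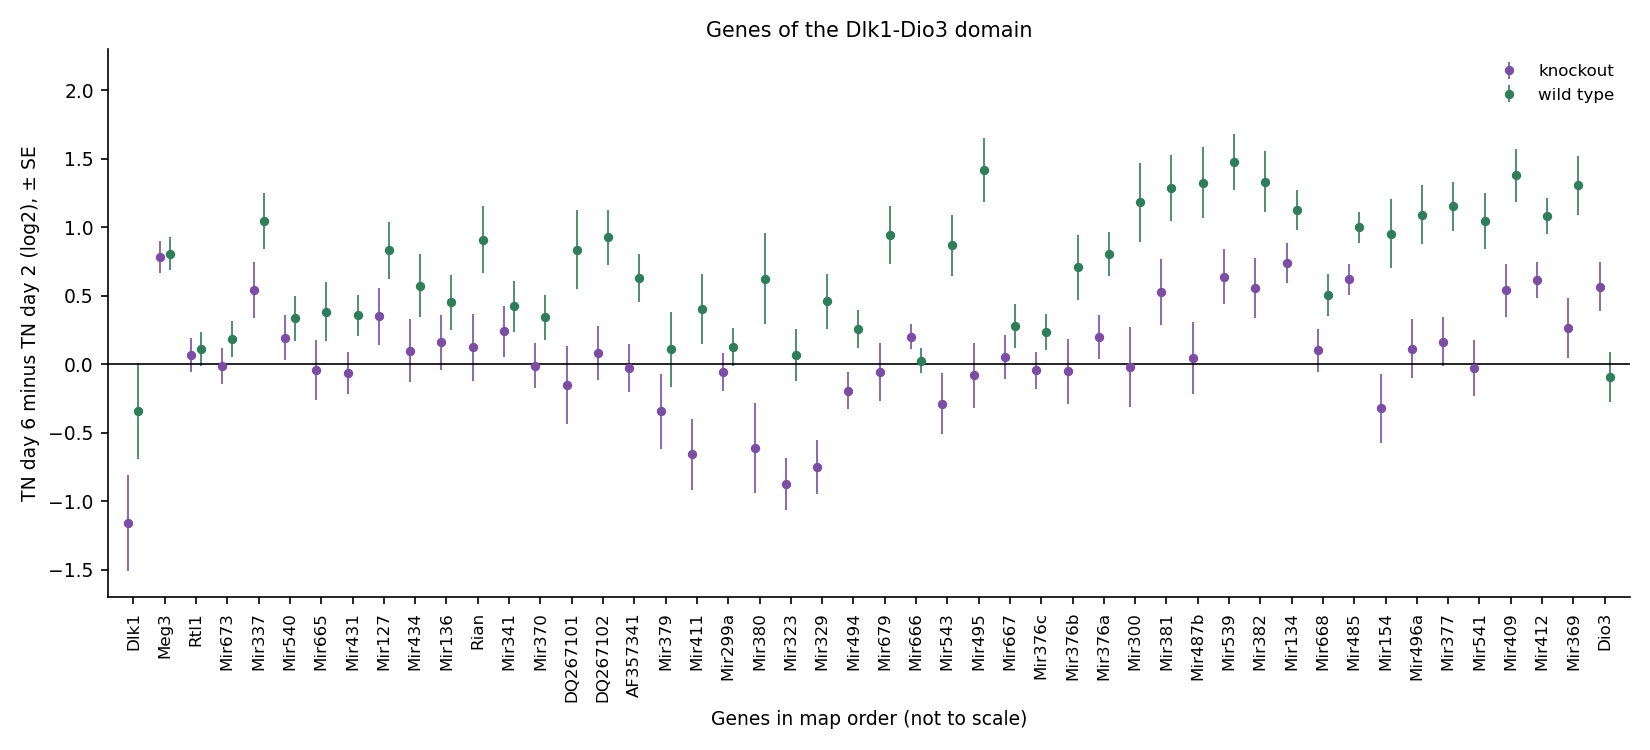
Change between TN day 2 and TN day 6 (log2, vertical axis, ± SE of the model) for each measured gene from Dlk1 to Dio3 in map order, in knockout and wild-type cells. All 40 microRNA genes lie above 0 in wild type, while the knockout median over them is 0.05.

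Outside the domain, Mir10a had 5.05, 5.35 and 5.00 at day 6, against 6.502 and 6.89 at day 2, and fell by 1.56 ± 0.25 (adjusted p = 6.58e-05). Mir10b, with the same seed, fell by 0.76 ± 0.20, and its adjusted p was 0.0813 without day 2 number 2. Mir99a and Mirlet7c-1, neighbours on chromosome 16, fell, with differences of -1.48 ± 0.20 and -1.41 ± 0.19, and Mir181b-2 fell by 1.60 ± 0.18. Mir137, a brain microRNA, rose by 0.69 ± 0.18, and its adjusted p was 0.118 without day 2 number 1.

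Of 27 genes of transmitter synthesis and transport, 5 rose (18.5%, against 16.7% of all genes) and 2 fell, and without day 2 number 2, 3 rose. Slc17a6 rose as described. The other vesicular glutamate transporters were not called, with 5.73, 5.68 and 5.77 at day 6, against 5.52 and 5.45 at day 2, for Slc17a7 and a difference of 0.22 ± 0.14 for Slc17a8. Gad1, which makes GABA, had 10.10, 10.09 and 10.17 at day 6, against 9.20 and 9.34 at day 2, and rose by 0.85 ± 0.16, and Gad2 rose by 0.55 ± 0.12 (adjusted p = 0.0589 without day 2 number 2). Slc1a1, a neuronal glutamate uptake transporter, rose by 1.52 ± 0.19. Slc18a2, which loads monoamines into vesicles, fell by 1.58 ± 0.13, with 5.39, 5.15 and 5.04 at day 6, against 6.87 and 6.66 at day 2.

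Nearly all genes of the fast glutamate receptors rose. Of 20 AMPA, kainate and delta receptor subunits and their partners, 18 were called higher and none lower (median 0.76); 12 were called without day 2 number 1. Gria1, a pore subunit of the AMPA receptor, had 9.21, 9.27 and 9.21 at day 6, against 8.01 and 7.89 at day 2, and rose by 1.28 ± 0.19. Gria2, which makes the receptor impermeable to calcium, was already high at day 2, at 10.04 and 10.06, and reached 10.79, 10.70 and 10.70 (0.68 ± 0.19, adjusted p = 0.00835, and 0.0558 without day 2 number 1). The auxiliary subunits Cnih3, Cacng3 and Neto2 rose by 1.72 ± 0.16, 1.67 ± 0.14 and 1.54 ± 0.11, and the pore subunits Gria4 and Grik2 by 1.10 ± 0.14 and 1.45 ± 0.19.

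Of 13 NMDA and metabotropic glutamate receptor genes, 7 rose and 1 fell. Grin2b, the NMDA receptor subunit of young neurons, had 8.76, 8.77 and 8.80 at day 6, against 7.26 and 7.20 at day 2, and rose by 1.55 ± 0.15. Grin2a, the subunit of mature neurons, rose by 1.15 ± 0.15. Grm5 rose by 1.98 ± 0.23. Of 21 GABA and glycine receptor and chloride transporter genes, 9 rose and 2 fell. Gabra2 had 7.78, 8.02 and 7.88 at day 6, against 5.48 and 5.72 at day 2. Gabra3 and Gabra5 rose by 1.15 ± 0.15 and 1.24 ± 0.23 and the GABA-B receptor Gabbr2 by 1.67 ± 0.11. The chloride exporter Slc12a5 (KCC2) rose by 0.54 ± 0.13 and the importer Slc12a2 (NKCC1) fell by 0.42 ± 0.10. Both calls ended when 1 day 2 array was left out, with an adjusted p of 0.0816 for Slc12a5 without number 1 and 0.0524 for Slc12a2 without number 2.

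Potassium, sodium and calcium channel genes rose more often than they fell. Of 49 potassium and HCN channel genes, 26 rose and 1, Kcnn1, fell (-0.70 ± 0.10); without day 2 number 2, 18 rose. Kcnk9, a leak channel that sets the resting potential, had 8.87, 9.23 and 9.10 at day 6, against 6.25 and 6.08 at day 2. Dpp10, a partner of A-type channels, had 8.90, 8.98 and 8.88 at day 6, against 6.29 and 6.27 at day 2, and its pore subunit Kcnd2 rose by 1.89 ± 0.15. Kcnk1 and Kcna4 rose by 1.45 ± 0.14 and 1.43 ± 0.17. Of 14 sodium channel genes and partners, 6 rose and 1, Scn9a, fell (-0.76 ± 0.21, adjusted p = 0.0892 without day 2 number 1). The intracellular modulators Fgf12 and Fgf13 rose by 1.16 ± 0.13 and 1.10 ± 0.13. Of 17 calcium channel genes, 9 rose and 1 fell, led by Cacna1a, the pore of the P/Q-type channel (1.10 ± 0.14).

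Most genes of the release machinery rose. Of 50 synaptic vesicle and release genes, 35 rose and 2 fell (median 0.67), and 28 to 36 rose over the other settings. Syn2, a synapsin that tethers vesicles, had 8.67, 8.74 and 8.70 at day 6, against 6.99 and 7.06 at day 2, and rose by 1.68 ± 0.15 (adjusted p = 2.17e-08). The active zone proteins Ppfia2 and Rimbp2 rose by 1.77 ± 0.14 and 1.47 ± 0.14, the fusion clamp Cplx1 by 1.44 ± 0.15 and the vesicle protein Sv2c by 1.40 ± 0.18. Snap25, a SNARE protein of vesicle fusion, rose by 0.57 ± 0.10 and had 10.43, 10.33 and 10.31 at day 6. Sncg, γ-synuclein, fell by 1.34 ± 0.14, with 8.14, 8.12 and 8.08 at day 6, against 9.33 and 9.57 at day 2.

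Of 41 genes of neurexins, neuroligins and other synaptic adhesion proteins, 30 rose and 3 fell (median 0.75), and 28 to 30 rose over the other settings. Ntm, an IgLON protein, had 9.76, 9.72 and 9.82 at day 6, against 7.81 and 7.72 at day 2, and rose by 2.00 ± 0.20. Nlgn3, a postsynaptic neuroligin, rose by 1.94 ± 0.28, Cntnap5a and Cntnap4 by 1.81 ± 0.20 and 1.72 ± 0.15, and Opcml by 1.57 ± 0.15. Cntn6 fell by 0.92 ± 0.20. Of 30 postsynaptic scaffold genes, 15 rose and 4 fell. Camk2b, a kinase of the postsynaptic density, rose by 1.44 ± 0.11 and the scaffold Shank1 by 1.13 ± 0.12.

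The 10 genes whose levels followed Slc17a6 most closely over the 9 wild-type arrays of ES, NP, TN day 2 and TN day 6 cells had Pearson correlations of 0.995 to 0.999, a description over arrays that share their stages. They were Tspoap1, Cplx1, Cntnap5a, Dpp10, Aplp1, Sgsm2, Kifc2, Stub1, Nkiras1 and AI593442. Tspoap1, an active zone protein, had means of 6.07 in ES cells, 6.14 in NP cells, 6.85 at TN day 2 and 7.82 at TN day 6. Aplp1, a relative of the amyloid precursor protein, ran from 9.62 in ES cells to 11.73 at TN day 6. Stub1, a ubiquitin ligase, rose by only 0.49 ± 0.09 in this interval.

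**Figure D4:**
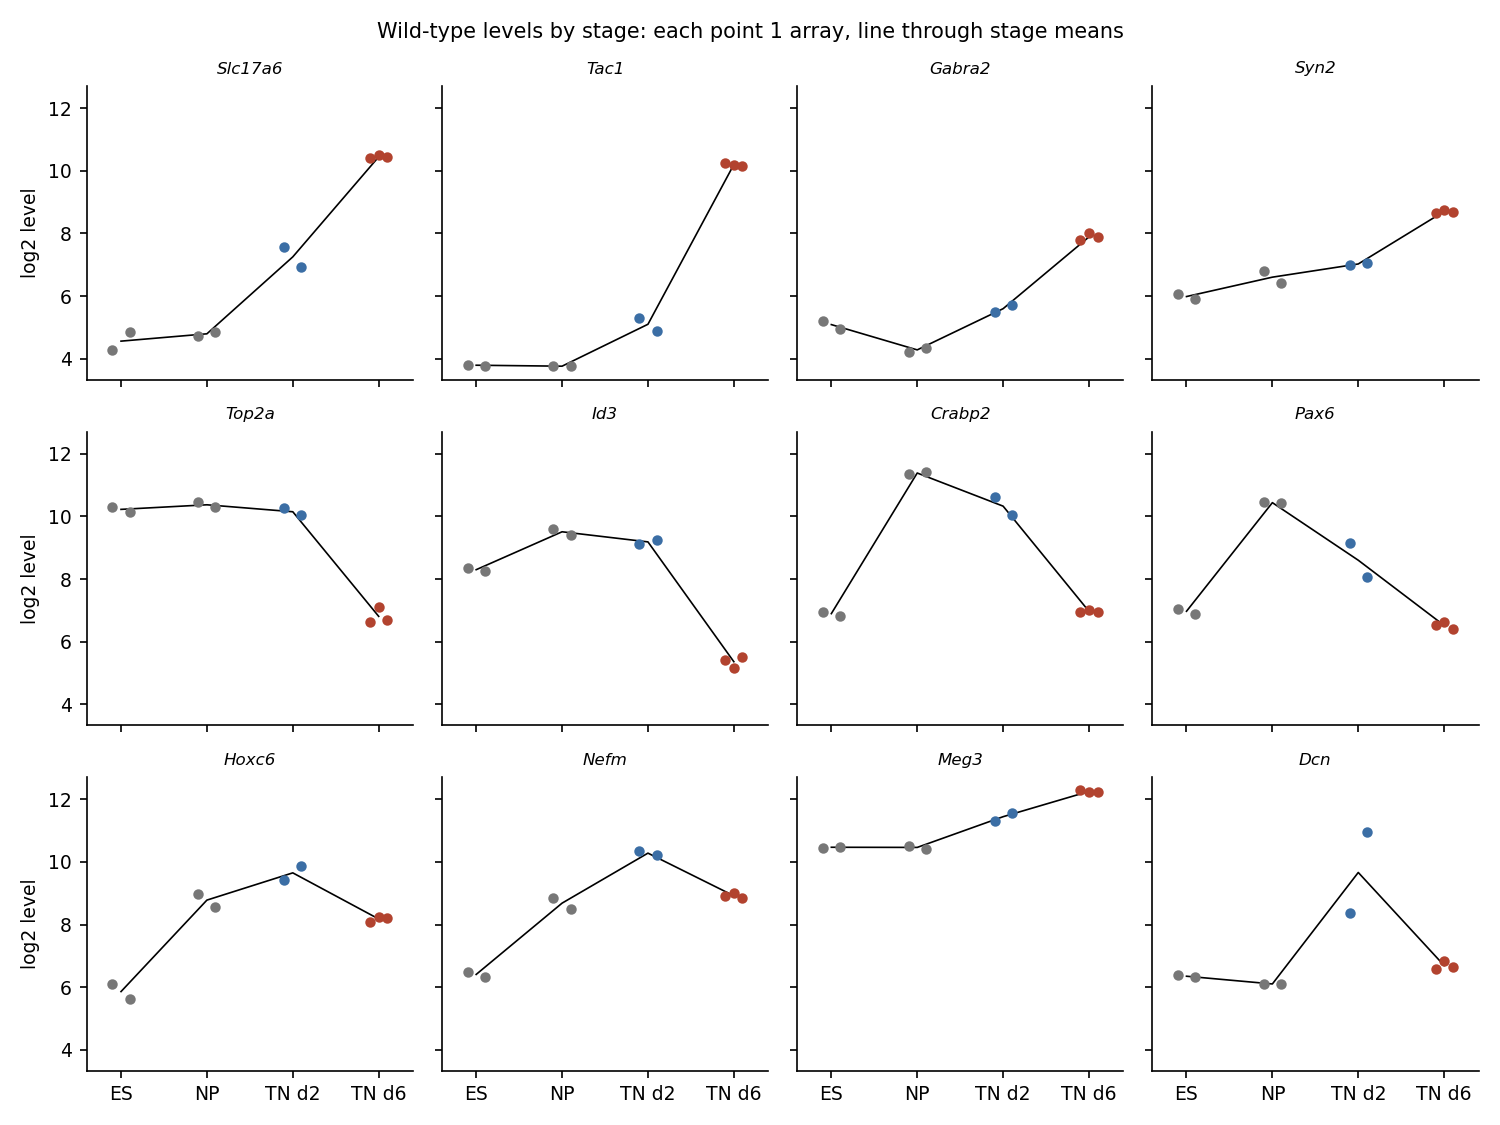
Log2 level (vertical axis) of 12 genes in each wild-type array at the ES, NP, TN day 2 and TN day 6 stages, with lines through the stage means. Slc17a6, Tac1, Gabra2 and Syn2 are highest at TN day 6, Crabp2 and Pax6 peak in NP cells, and Dcn has 8.37 and 10.96 in the TN day 2 arrays.

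Of 30 pan-neuronal genes, 15 rose and 2 fell, with a median of 0.32. Tubb3, the neuronal tubulin, had 12.22, 12.22 and 12.20 at day 6, against 11.74 and 11.57 at day 2, and rose by 0.56 ± 0.12. Syn1, synapsin I, rose by 1.23 ± 0.12. Of 38 cytoskeletal genes, 18 rose and 3 fell, and 10 rose without day 2 number 2. Mapt, the tau protein, rose by 0.89 ± 0.19 and the kinesin Kif3c by 0.73 ± 0.13. Nefm, a neurofilament subunit, fell by 1.36 ± 0.16, with 8.90, 8.996 and 8.86 at day 6, against 10.36 and 10.21 at day 2, and Nefl fell by 0.47 ± 0.14, with an adjusted p of 0.223 without day 2 number 1.

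Axon guidance genes split, with 12 of 47 higher and 13 lower and a median of 0.06; without day 2 number 2, 7 were higher. Robo3, the receptor that lets axons cross the midline, had 7.56, 7.82 and 7.39 at day 6, against 9.71 and 9.14 at day 2, and fell by 1.83 ± 0.22 (adjusted p = 1.23e-06). Robo2, which mediates repulsion by Slit proteins, had 11.47, 11.36 and 11.40 at day 6, against 9.87 and 10.18 at day 2, and rose by 1.39 ± 0.38 (adjusted p = 0.00835, and 0.087 without day 2 number 1). The ligand gene Slit3 fell by 1.16 ± 0.28 (adjusted p = 0.0518 without day 2 number 2). Plxna4, a semaphorin receptor, rose by 1.21 ± 0.30. Of 17 neurotrophin system genes, 5 rose and 1 fell, and Ntrk2, the receptor of BDNF, rose by 0.91 ± 0.19. Of 31 neuropeptide and granin genes, 10 rose and none fell, with 7 without day 2 number 1 and 6 without number 2. Beside Tac1, Pcsk1n, a small granin-like protein, rose by 0.99 ± 0.15 and Npy, neuropeptide Y, by 0.95 ± 0.14.

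Transcription factors of regional identity moved in both directions, as did all genes, of which 16.7% rose and 11.9% fell. The shares higher and lower were 31.8% and 18.2% for cortical projection neuron factors and 9.09% and 21.2% for hindbrain, spinal and sensory factors. For interneuron factors the share lower was 35.3%. Of 22 factors of cortical projection neurons 7 rose and 4 fell, of 33 hindbrain, spinal and sensory factors 3 rose and 7 fell, and of 17 interneuron factors 6 fell, none of which was called without day 2 number 1. Bcl11a, a zinc finger factor that also joins BAF chromatin complexes, had 11.22, 11.08 and 11.14 at day 6, against 9.99 and 9.84 at day 2, and rose by 1.23 ± 0.18. Its relative Bcl11b rose by 0.86 ± 0.12. Nfib, a factor of glial and neuronal differentiation, fell by 1.52 ± 0.19, and Prdm8 fell by 1.94 ± 0.13. Foxp2 rose by 0.95 ± 0.21, and by 0.61 (adjusted p = 0.0778) without day 2 number 1.

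BAF remodelling complexes exchange subunits as progenitors become neurons. Of 24 BAF genes, 7 rose (29.2%) and 2 fell (8.33%), against 16.7% and 11.9% of all genes, and 15 were not called. Their median difference was 0.08, against 0.09 over all genes. The neuronal subunits Actl6b (BAF53b), Dpf1 (BAF45b) and Ss18l1 (CREST) rose by 0.98 ± 0.12, 0.81 ± 0.09 and 0.59 ± 0.10. Actl6b had 10.14, 10.19 and 10.08 at day 6, against 9.13 and 9.18 at day 2, where ES cells had a mean of 5.81. Dpf2, a subunit of non-neuronal complexes, fell by 0.51 ± 0.09. Of 28 RNA-binding and splicing regulators, 10 rose and 6 fell. Ptbp1, which represses neuronal exons, had 8.62, 8.60 and 8.68 at day 6, against 9.67 and 9.74 at day 2, and fell by 1.07 ± 0.13. Celf5 and Rbfox3, the NeuN antigen, rose by 1.15 ± 0.12 and 0.77 ± 0.10. Rest, the repressor of neuronal genes in other cells, fell by 0.48 ± 0.14, with an adjusted p of 0.174 without day 2 number 2. Of 28 chromatin regulators, 2 rose and 9 fell, and Hmgb2, a chromatin protein of dividing progenitors, fell by 1.61 ± 0.12.

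Of the 8 topoisomerase and tyrosyl-DNA phosphodiesterase genes 4 were called lower, led by Top2a, and without day 2 number 1 only 1 was.

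The counts for stress, activity and metabolic genes stand against 16.7% of all genes higher and 11.9% lower. Of 25 p53 targets and apoptosis genes, 10 fell and 2 rose, and without day 2 number 2, 5 fell. Btg2, which also marks progenitors about to form neurons, fell by 1.64 ± 0.19 and Trp53inp1 fell by 0.92 ± 0.09. Of 26 immediate early genes 3 rose and 3 fell (11.5% each, near the shares of all genes), among those that rose Nr4a1 (0.89 ± 0.12) and Npas4 (0.49 ± 0.13, adjusted p = 0.0637 without day 2 number 2). Of 24 ATF4, serine synthesis and ER stress genes 5 rose and 7 fell, and 4 fell without day 2 number 1. The amino acid genes Slc7a5 and Asns rose by 1.23 ± 0.18 and 0.89 ± 0.13, while Phgdh, the first enzyme of serine synthesis, fell by 0.82 ± 0.14. Of 27 cholesterol and fatty acid genes 9 fell, led by the desaturase Scd1 (-1.83 ± 0.25), and 2 fell without day 2 number 1. Of 18 glycolysis genes 7 rose and 5 fell, with 4 higher without day 2 number 2 and 3 lower without number 1, and with Aldoc, the brain aldolase, higher by 1.54 ± 0.24. Of 43 genes of mitochondrial complexes I and III, 8 rose and 4 fell (18.6% and 9.3%, near the shares of all genes), with a median of -0.10, and 5 rose without day 2 number 2.

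Markers of other cell types were checked against the label of neurons, and over all genes 16.7% rose and 11.9% fell. The share that fell was 11.8% of endothelial and mural, 5.88% of endoderm and epithelial and 16.7% of neural crest and Schwann markers. Of astrocyte markers 18.8% fell and 18.8% rose, and of mesenchymal and fibroblast markers 55.6% fell. None of 15 oligodendrocyte lineage and 15 microglia markers was called, and their mean levels were 5.77 to 5.90 and 5.40 to 5.48 at day 6, against 5.77 to 5.88 and 5.26 to 5.39 at day 2. Of 16 astrocyte markers 3 rose and 3 fell, with mean levels of 6.44 to 6.52 at day 6, against 6.51 and 6.73 at day 2. Of 17 endothelial and mural markers 2 fell, of 17 endoderm and epithelial markers 1 fell, and none of either was called without day 2 number 2. Of 12 neural crest and Schwann markers 2 fell (median -0.33), with mean levels of 6.85 to 6.97 at day 6, against 7.57 and 7.40 at day 2, and 3 fell when either day 2 array was left out. Of 18 mesenchymal and fibroblast markers 10 fell and none rose, with a mean level of 6.56 to 6.63 at day 6, against 7.05 and 8.54 at day 2. The count was 13 without day 2 number 1 and 3 without number 2. Acta2, smooth muscle actin, had 7.04, 6.69 and 7.13 at day 6, against 8.31 and 10.83 at day 2, and its difference of -2.62 ± 0.55 lost its call without number 2 (adjusted p = 0.0851, limma). Col3a1 fell by 2.09 ± 0.37, and its difference was -1.09 without number 2. Col1a1 was not called, with a difference of -0.76 ± 0.41 that was 0.10 without number 2. Col1a1 was called without number 1 (-1.62, adjusted p = 0.00806, limma) and with array weights (adjusted p = 0.0473, limma). What part these cells had in the falls of other genes was not tested.

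Long genes took part in both directions. Of 2294 genes with a RefSeq span over 100 kb, 624 rose (27.2%) and 344 fell (15.0%), against 16.7% and 11.9% of all genes. Their median difference was 0.10, against 0.09 over all genes.

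The last question was whether the change over these days differed in knockout cells. In knockout cells 4397 genes rose (22.1%) and 2543 fell (12.8%). Of the genes called in wild type, 3844 were called in the same direction in knockout cells. The difference of the changes was called for 957 genes (4.8%), 540 higher in knockout and 417 lower, and 555 of them were also called in wild type. The count was 389 without wild-type day 2 number 1, 1425 without wild-type day 2 number 2 and 391 without knockout day 2 number 2. The groups of the 2 genotypes share no array.

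Many progenitor genes had a positive difference. Of 29 radial glia and progenitor genes, 13 were called higher in knockout and 1 lower, and 7 of 26 Notch genes were called higher. Over all genes 2.71% were called higher and 2.09% lower. The median change of the progenitor genes was -0.14 in knockout and -0.84 in wild-type cells. List counts for the difference between genotypes were not repeated with arrays left out. Pax6 had 8.89, 9.002 and 8.61 at day 6 and 7.62 and 7.06 at day 2 in knockout cells, against 6.53, 6.62 and 6.39 at day 6 and 9.14 and 8.06 at day 2 in wild-type cells. It rose by 1.496 ± 0.26 in knockout cells and fell in wild type, a difference of 3.58 ± 0.37 (adjusted p = 4.64e-06). Sfrp2, a secreted Wnt modulator, had the largest positive difference (4.43 ± 0.28, adjusted p = 3.62e-09), rising by 1.72 ± 0.20 in knockout and falling by 2.71 ± 0.20 in wild-type cells. Sox2 differed by 2.06 ± 0.34, Nrarp by 2.14 ± 0.45, Dll3 by 1.89 ± 0.34, Dll1 by 1.77 ± 0.31 and Notch1 by 1.30 ± 0.26. Without wild-type day 2 number 1 the adjusted p was 0.0825 for Nrarp and 0.0628 for Notch1, and the difference of Hes5 (1.72 ± 0.32) became 1.05. Nrarp also missed the threshold without knockout day 2 number 2 (adjusted p = 0.079).

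The Wnt ligands Wnt7a and Wnt7b, the progenitor factors Sox21 and Dbx1, the endothelin receptor Ednrb, the nicotinic receptor subunit Chrna5, the orphan receptor Gpr50 and Moxd1, a relative of dopamine β-hydroxylase, had the other large positive differences, from 2.55 to 3.75. Neurod4 and Prdm8 differed by 1.63 ± 0.22 and 2.48 ± 0.18, and Nefm differed by 1.17 ± 0.23 (adjusted p = 0.051 without knockout day 2 number 2).

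The mitosis genes had a negative median in both genotypes. The median of the 41 mitosis genes was -1.83 in knockout and -2.40 in wild-type cells. Of their differences 4 were called, all higher in knockout, where 2.71% of all genes were called higher. Cdk1 changed by -1.90 in knockout cells and -2.46 in wild-type cells, a difference of 0.56 ± 0.28 that was not called. Top2a differed by 1.32 ± 0.28 (adjusted p = 0.0064, and 0.0562 without wild-type day 2 number 1).

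Among the negative differences, Lpl, lipoprotein lipase, had 5.60, 5.16 and 5.49 at day 6 and 8.40 and 9.33 at day 2 in knockout cells, against 8.11, 8.17 and 7.91 at day 6 and 6.12 and 6.39 at day 2 in wild-type cells, a difference of -5.25 ± 0.26 (adjusted p = 6.29e-11). Its direction was opposite in the genotypes. Tac1 had 6.31, 6.496 and 6.23 at day 6 and 4.35 and 3.74 at day 2 in knockout cells, and its difference was -2.80 ± 0.29 (adjusted p = 3.95e-06), so the rise was smaller but still called in knockout. Nxf3 had 3.82, 4.24 and 4.12 at day 6 and 4.01 and 3.84 at day 2 in knockout cells, with no called change there and a difference of -2.41 ± 0.18. The AMPA receptor partner Cacng3, the GABA-A receptor subunit Gabra3 and the adhesion protein Cntnap5a differed by -1.57 ± 0.20, -1.60 ± 0.22 and -1.39 ± 0.29. For Slc17a6 the difference was not called (-0.62 ± 0.36, adjusted p = 0.392), but it was -1.28 (adjusted p = 0.0202) without knockout day 2 number 2.

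Kdr, the VEGF receptor of endothelial cells, had 5.07, 5.16 and 5.20 at day 6 and 8.84 and 10.35 at day 2 in knockout cells, against 5.25, 5.16 and 5.39 at day 6 and 5.48 and 6.68 at day 2 in wild-type cells (-3.63 ± 0.62, adjusted p = 0.00123). The kinase Stk26, the ligand Wnt1, the imprinted zinc finger gene Zim1, the collagen Col14a1, Pakap, Penk (the enkephalin precursor) and B130016D09Rik differed by -2.70 to -3.39. Pakap changed by -1.33 in knockout cells and 1.38 in wild-type cells. Penk changed by -1.99 ± 0.35 in knockout cells and 0.71 ± 0.35 in wild-type cells. In wild type Penk had 8.53, 8.57 and 8.58 at day 6, against 7.12 and 8.58 at day 2. Its wild-type change therefore rests on day 2 number 1. Zim1 lost its call without wild-type day 2 number 1 (adjusted p = 0.162) and without knockout day 2 number 2 (0.0951). The mesenchymal and fibroblast markers had a mean level of 6.82 to 7.07 at day 6 and 8.61 and 9.02 at day 2 in knockout cells, against 6.56 to 6.63 at day 6 and 7.05 and 8.54 at day 2 in wild-type cells, and their part in these differences was not tested.

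**Figure D5:**
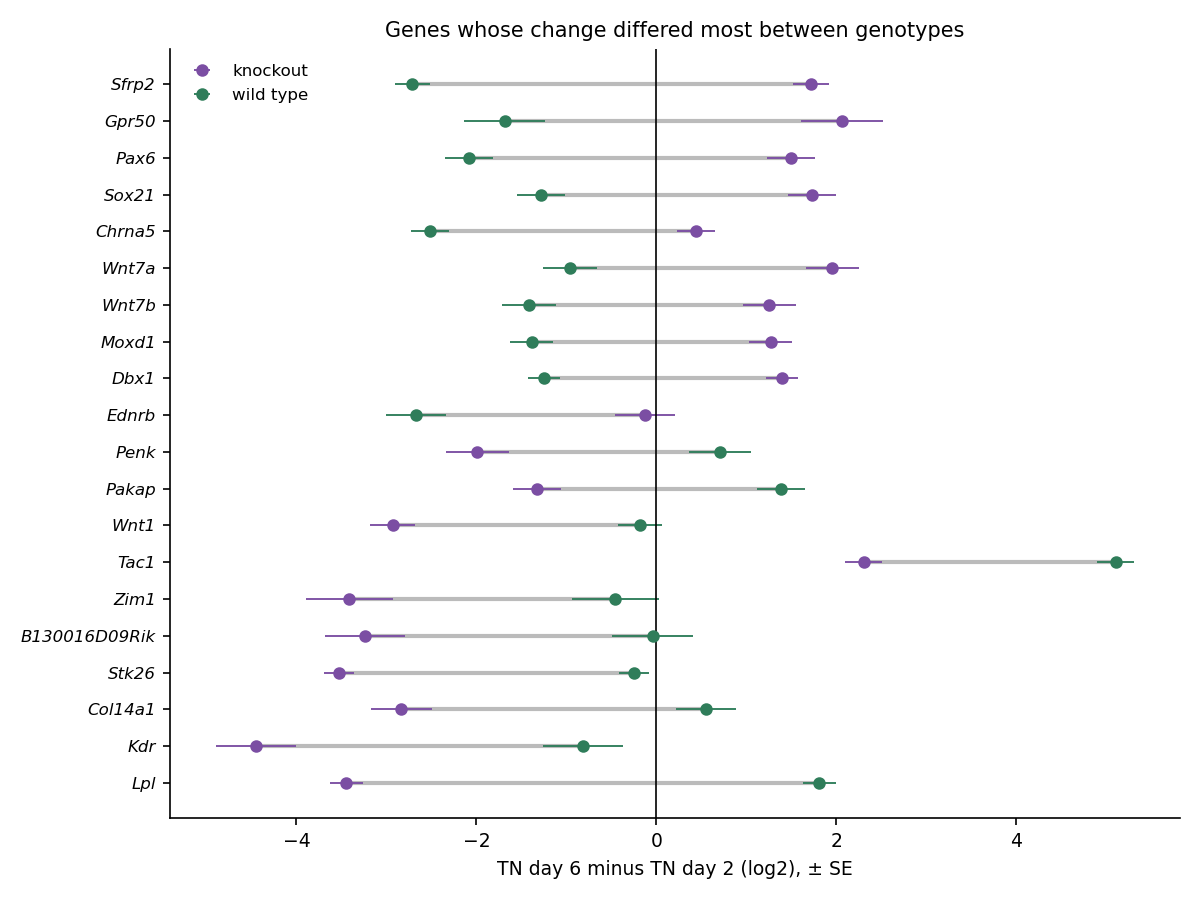
Change between TN day 2 and TN day 6 (log2, horizontal axis, ± SE of the model) in knockout and wild-type cells for the 10 genes with the largest positive and the 10 with the largest negative called difference between genotypes. Lpl fell by 3.44 in knockout cells and rose by 1.81 in wild-type cells, and Sfrp2 rose by 1.72 in knockout cells and fell by 2.71 in wild-type cells.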

How the data were processed

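The deposited values, 35556 probe sets by 28 arrays, run from 1.963 to 13.99 and were read as log2 from that range. Per the submitters' processing notes, the authors used oligo (version 1.14.0). No source used here gives the summarization, the logarithm base or a genome build. Probe sets with 1 gene symbol (21789) were used, several symbols (1621) or no entry (12146) were left out, and for 999 genes with more than 1 probe set the brightest was kept. limma 3.58.1 in R 4.3.3 fitted 12 group means to all arrays (16 residual degrees of freedom), with two-sided moderated tests adjusted by Benjamini-Hochberg over 19938 genes. Arrays have no read depth; their number limits the precision. The fit was tested on simulated data.

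The members and the gene lists were chosen with earlier results of these data known, and lists got no test of their own. Genes were named as the 25 largest called changes in each direction without overlap between groups, members of lists of up to 30 genes, the 6 largest called members of longer lists in each direction, Top2b, the 10 largest called differences between genotypes in each direction, and the 10 genes most like Slc17a6. Ccnb2, Cdk1, Hmmr, Pcna, Meg3, Rian, Rtl1, Dio3, Mir10b, Mir134, Mir137 and Mir377, and the genes beyond the 20 largest named for their difference between genotypes, were chosen after their values were seen. Alternatives changed the normalization, a filter on dim genes, the probe set rule, the array weights, the prior variance, the call rule, the replicate block and the arrays used.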

Additional observations from a re-analysis of the deposited data

Results flagged for a closer look

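The change between TN day 2 and TN day 6 differed between knockout and wild-type cells for 957 genes in limma's test of the difference itself. Values are the knockout change minus the wild-type change on the log2 scale. The largest positive differences were 4.43 for Sfrp2, 3.75 for Gpr50, 3.58 for Pax6, 3.01 for Sox21, 2.96 for Chrna5, 2.92 for Wnt7a, 2.67 for Wnt7b, 2.65 for Moxd1, 2.65 for Dbx1 and 2.55 for Ednrb. Among other progenitor, Notch and bHLH genes the difference was 2.06 for Sox2, 2.14 for Nrarp, 1.77 for Dll1, 1.89 for Dll3, 1.30 for Notch1, 1.72 for Hes5, 1.36 for Id3 and 1.63 for Neurod4. It was 2.48 for Prdm8, 1.17 for Nefm and 1.32 for Top2a.

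The largest negative differences were -5.25 for Lpl, -3.63 for Kdr, -3.39 for Col14a1, -3.28 for Stk26, -3.20 for B130016D09Rik, -2.96 for Zim1, -2.80 for Tac1, -2.75 for Wnt1, -2.71 for Pakap and -2.70 for Penk. The difference was -2.41 for Nxf3, -1.60 for Gabra3, -1.57 for Cacng3 and -1.39 for Cntnap5a. Among microRNA genes it was -1.50 for Mir495 and -0.99 for Mir377.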

How the results depend on the processing

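The 5690 calls in wild-type cells changed by less than 1.5 times under quantile normalization, median centring, a filter on dim genes, mean probe sets, other weights and other priors. Requiring a log2 difference of at least 1 left 919 genes, 357 higher and 562 lower. Leaving out 1 array at a time gave 4139 to 4993 calls, 2203 to 3022 higher and 1470 to 2133 lower. The difference between genotypes moved more. Array weights gave 1555 calls, 910 higher and 645 lower, and leaving out 1 array gave 389 to 1425, 192 to 878 higher and 160 to 547 lower. The cause was not tested.

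The labels do not say whether arrays with the same replicate number share a culture or batch. Same-numbered arrays deviated together at r = -0.0238 and -0.13. With only 2 day 2 arrays, whose deviations mirror each other, these values cannot decide the question. With the replicate number as a block there were 4407 calls in wild type, 2546 higher and 1861 lower, and 573 for the difference, 324 higher and 249 lower. Day 6 number 3 carries no information on the change in that fit. Hes5 had an adjusted p of 0.0514 when only the compared arrays were fitted by limma, and Nefl one of 0.0655 with the block. No named gene reversed its direction in a call.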
